A study of Homo sapiens with 7 samples.

Results

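The comparison set HEK293 cells in which both PAPα and PAPγ were knocked down (siPAPag) against HEK293 cells in which PAPα alone was knocked down (siPAPa). It used 2 of the 7 libraries of the series, chosen by their labels, and it asked what the added siRNA against PAPγ changed where PAPα was already knocked down, with no use of siCtrl in the ratio. HEK293, here from the American Type Culture Collection, is a widely used cell line derived from human embryonic kidney. The 3′READS method isolates the last stretch of an RNA before its poly(A) tail, so that each PASS read (poly(A) site supporting read) marks a cleavage and polyadenylation site (PAS). siPAPa cells received siRNA against PAPOLA, the gene of PAPα. siPAPag cells received siRNAs against PAPOLA and PAPOLG, the gene of PAPγ. Beside them stand siPAPg, which had siRNA against PAPOLG alone, and siCtrl, which had a control siRNA, both read with the same protocol. Each group was 1 library, so no value here has a replicate check, no test across genes was possible, and all intervals cover counting error only. siPAPag was deposited in a table of its own, together with a repeat of siCtrl. The labels give no batch for siPAPag. The study speaks of different batches of 3′READS where it names the double KD, but its mapping statistics mark only a siCtrl and a siStar-PAP library as batch 2. Whether siPAPag was of another batch is thus not settled, and a batch difference and the added siRNA against PAPOLG cannot be told apart.

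PAPα and PAPγ are canonical nuclear poly(A) polymerases. They act with CPSF, which reads the AAUAAA signal of the pre-mRNA, and add the poly(A) tail after cleavage. PAPα is encoded by PAPOLA and PAPγ by PAPOLG, and the enzymes are closely related and broadly expressed. Many genes hold several PASs. Use of one or the other in the last exon sets the length of the 3′UTR (3′UTR-APA), and use of a PAS in an intron or an upstream exon truncates the RNA (UR-APA).

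The columns held 16893739 reads for siPAPa and 11273401 for siPAPag, against 9007142 for siPAPg and 8352991 for siCtrl. Reads were scaled to 1000000 reads of these totals (RPM). PAPOLA had 12 reads in siPAPa and 8 in siPAPag, against 71 in siCtrl and 66 in siPAPg. PAPOLA was therefore low in both libraries of the comparison, at 0.0836 of siCtrl in siPAPa (95% exact interval 0.0412 to 0.155) and at 0.0753 in siPAPag (0.0314 to 0.156), the latter against the 78 siCtrl reads of its own table. None of the siPAPag reads of PAPOLA, and all of those of siPAPa, lay at PASs listed in both tables. Between them the ratio was 0.999, with an interval from 0.354 to 2.66. PAPOLG had 36 reads in siPAPa, 6 in siPAPag, 15 in siPAPg and 5 in siCtrl. It was lower in siPAPag than in siPAPa, at a ratio of 0.25 (0.086 to 0.598), and it was higher in siPAPa than in siCtrl, at 3.56 (1.39 to 11.6). Against siCtrl, PAPOLG was at 0.881 in siPAPag (0.224 to 3.65) and at 2.78 in siPAPg (0.961 to 9.78). No fall of its RNA below siCtrl was thus detectable at these read numbers in either library labelled as a PAPγ KD. The study examined the KDs at the protein level by immunoblot and reports them as effective. Protein is not measured by these reads. TUT1, which encodes Star-PAP, had 228 reads in siPAPa and 168 in siPAPag, a ratio of 1.10 (0.899 to 1.35), and GAPDH had 65972 and 37963, a ratio of 0.862. PAPOLB was in neither list of genes. Of 8 HEK293 markers, the epithelial keratin KRT18 was at 2103 RPM in siPAPa and 1708 in siPAPag, vimentin (VIM) at 119.5 and 71.3 RPM, and the neurofilament genes NEFL and NEFM at 46.2 and 29.5 and at 16.6 and 19.7 RPM. The other 4 had few reads, with 57 and 59 for KRT8, 17 and 12 for NES, 3 and 9 for NEFH, and 5 and 3 for PAX2. Of 12 markers of blood, liver, fibroblast, squamous and endothelial cells, 3 were listed in both tables, and of these APOA1 had 13 and 12 reads, COL1A1 had 2 and 1, and KRT5 had 0. In RNA from whole cultures, fewer cells with a transcript and less of it per cell cannot be told apart.

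The 2 libraries stand in tables that the authors clustered and filtered separately, and the repeated siCtrl library shows what this did. There were 51882 PASs on the strand of the gene in the table of siPAPa and 44595 in that of siPAPag, of which 32137 were in both. At 32024 of the shared PASs the siCtrl count was the same. Gene sums differed more, since they take in PASs listed in only 1 table. Of 14348 genes in both tables, 9051 (63.1%) had the same siCtrl sum. There were 1451 PASs with over 50 reads in siPAPa that were absent from the other table, and 886 of them had a PAS of that table within 24 nt.

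Over all genes with more than 50 reads in siPAPa and siPAPag together, 448 of 10616 were higher past 2-fold in siPAPag (4.22%) and 798 were lower (7.52%), with a median log2 ratio of 0.017. Scaled by the study's own PASS read totals, 271 were higher and 1027 lower. Many of the falls went with the listing. Among the 335 genes whose siCtrl sum differed past 2-fold between the tables, 268 were lower and 2 higher, with a median log2 ratio of -2.10. The 12 lowest genes by the bound of the interval nearest to no change were SMURF2, SAMHD1, NKX2-4, METRNL, FNIP2, PIK3CB, GAS2L3, PINX1, TNFRSF10A, LRRC58, NFKBID and FAM98B. In all 12 the siCtrl sum itself was lower in the table of siPAPag. METRNL, a secreted protein, went from 7971 reads in siPAPa to 11 in siPAPag, and its siCtrl reads from 2124 to 21 between the tables. PIK3CB, a catalytic subunit of phosphoinositide 3-kinase, had 2578 reads in siPAPa and 5 in siPAPag, with 4357 and 0 siCtrl reads. These values describe the tables and are not read as a change in the cells.

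**Figure D1:**
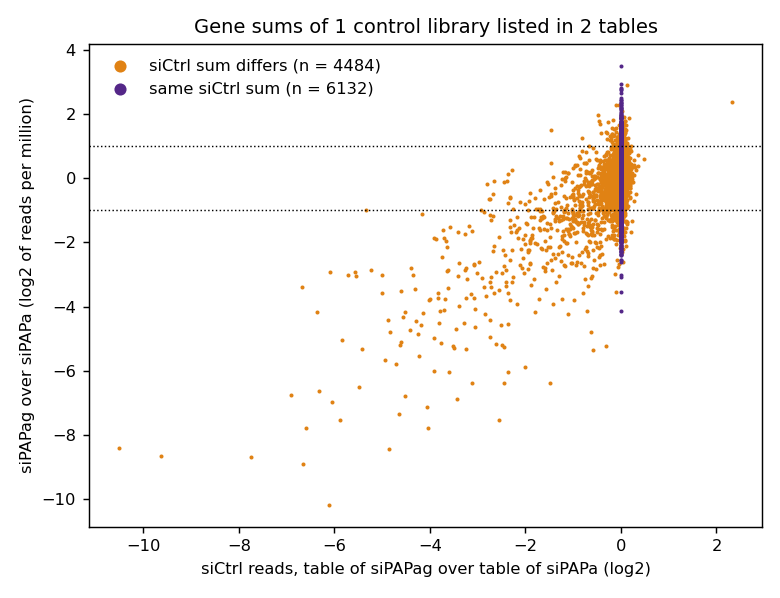
For each gene tested, the log2 ratio of siPAPag over siPAPa (vertical) against the log2 ratio of the siCtrl sums of the same control library in the 2 tables (horizontal, counts under 3 set to 3); dotted lines mark 2-fold. The 6132 genes with the same siCtrl sum stand on the vertical line at 0, and the deepest falls lie to the left of it, among the 4484 genes whose siCtrl sum differed.

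What follows on genes therefore rests on the 6132 tested genes with the same siCtrl sum in both tables, an alternative planned with the settings, although the choice to lead with it was made after the data were seen. There, 313 genes were higher past 2-fold in siPAPag (5.1%) and 275 were lower (4.48%), and the median log2 ratio was 0.047. The study's PASS totals turned the balance, with 183 higher and 394 lower, and moved the median by -0.167 on the log2 scale. The quartiles of the log2 ratio were -0.28 and 0.39 with the column totals. The interval of the ratio lay wholly past 2-fold for 82 genes (1.34%) in the higher and 61 genes (0.995%) in the lower direction. Calls were most frequent among genes with few reads. Of 4 equal groups by mean level, the lowest (1.58 to 5.03 RPM) had 174 of 1533 genes higher and 175 lower, and the highest (44.2 RPM and above) had 17 higher and 9 lower. Noncoding genes had a median log2 ratio of 0.19, and 18 of 152 were higher (11.8%) and 7 lower, against 295 and 268 of 5980 mRNA genes.

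**Figure D2:**
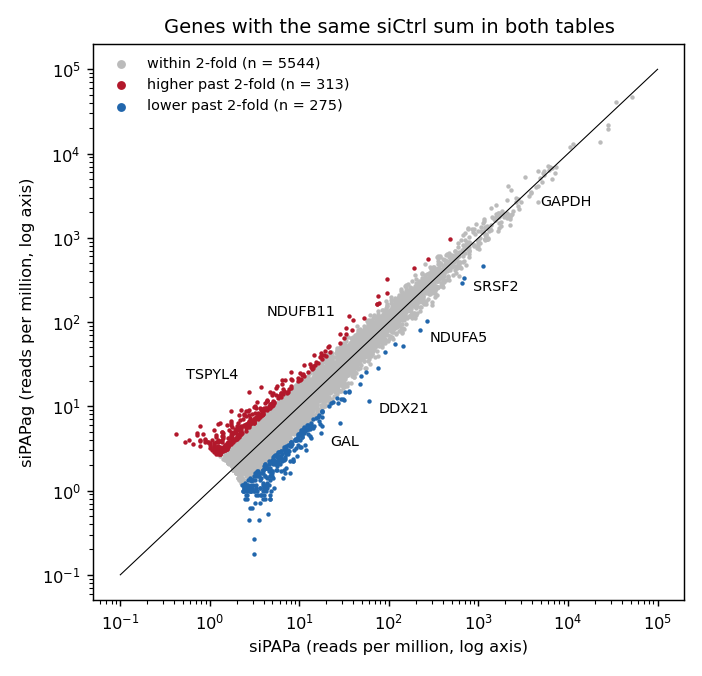
Level of each of the 6132 genes in siPAPa (horizontal) and siPAPag (vertical), in RPM, both axes logarithmic; the line is equality. The 313 genes higher and the 275 genes lower past 2-fold lie mostly at the low end, and DDX21, NDUFA5, SRSF2 and NDUFB11 are among the well-read exceptions.

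At single PASs the same site was counted in both tables. Of 12813 PASs read over the minimum, 820 were higher past 2-fold in siPAPag (6.4%) and 931 lower (7.27%), and with the study's PASS totals 572 were higher and 1270 lower. With siPAPa thinned to the total of siPAPag (mean of 20 draws), 756 were higher and 684 lower, so that the order of the directions turned. Last-exon PASs were called in 670 and 766 of 11706 cases, and intronic PASs in 143 (14.0%) and 155 (15.2%) of 1022. Of the PASs highest and lowest by the bound of the interval, 4 of the first 5 and the 5 lowest, among those with the same siCtrl count in both tables, are shown because they are the sites at which the libraries stood farthest apart. Each line gives the last 30 bases of the genome (GRCh37, the build the authors call hg19) up to the PAS, on the strand of the gene, with the AATAAA or ATTAAA signal in capitals.
SPTLC2: ttttgccctAATAAAatattcagaaagata
ZNF169: aatataAATAAAgctgttttaagcatgcaa
TMEM86B: taatgactaatgaagttgaacacattccca
UBE2H: ttcaaacAATAAAaaattgtattttttcaa
ZNF569: gtaaagctttcATTAAAatgtcaaatctca
UGT3A2: cctgtATTAAAgtttcattttttgtttgca
C10orf76: atgtctatAATAAAtcttgaaatcagctaa
SF3B1: tctattgaattaAATAAAttttgaaaaggg
ADK: tttgtttAATAAAttatgagtaaattttga

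Among the highest, SPTLC2 encodes a subunit of serine palmitoyltransferase, which starts sphingolipid synthesis, and its last-exon PAS (chr14:77972340-77972369, minus strand) had 7 reads in siPAPa and 49 in siPAPag, a ratio of 10.5 (4.73 to 27.5). The zinc finger gene ZNF169 held an intronic PAS (chr9:97058099-97058128, plus strand) with 8 and 51 reads. TMEM86B encodes a lysoplasmalogenase, and its last-exon PAS (chr19:55732584-55732613, minus strand), which has neither signal in the printed bases, had 23 and 107 reads. For UBE2H, a ubiquitin-conjugating enzyme, the last-exon PAS (chr7:129472633-129472662, minus strand) had 20 and 94 reads, and 92 in siCtrl. Here siPAPa was the low library, while in ZNF169 and SPTLC2 siCtrl was low too.

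Among the 5 lowest, 4 were intronic, and at these siPAPa was the highest library in RPM. The exception, the last-exon PAS of the zinc finger gene ZNF569 (chr19:37904788-37904817, minus strand), had 57 reads in siPAPa, 0 in siPAPag and 43 in siCtrl. In siPAPag it was at least 12.7-fold lower when 0 is put at 3 reads. The intronic PAS of UGT3A2 (chr5:36048692-36048721, minus strand), a UDP-glycosyltransferase, had 52 and 0 reads. In C10orf76 an intronic PAS (chr10:103631156-103631185, minus strand) fell from 70 reads to 1, with 9 in both siCtrl and siPAPg. SF3B1 encodes a core protein of the U2 snRNP, and its intronic PAS (chr2:198260516-198260545, minus strand) had 85 reads in siPAPa against 3 in siPAPag, 5 in siCtrl and 2 in siPAPg. In ADK, adenosine kinase, the intronic PAS (chr10:76285895-76285924, plus strand) had 91 reads in siPAPa and between 4 and 11 in the others. No other PAS of the gene stood within 24 nt of any of these sites in either table.

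Signal and base composition were looked at over all last-exon PASs tested, on the strand of the gene only. AATAAA lay in the last 40 bases of 59.7% of them, ATTAAA without AATAAA in 16.9% and neither in 23.4%. PASs lower in siPAPag held neither signal in 30.9% of 766 cases (27.7 to 34.3%) and those higher in 26.0% of 670 (22.7 to 29.5%), against 22.7% of the 10270 within 2-fold. TGTA, the core of the site that CFI binds as UGUA, lay between 100 and 41 bases before 38.5% of the higher, 40.3% of the lower and 39.5% of the other PASs. Over all 32137 shared PASs, AATAAA was found at 49.5%, ATTAAA alone at 16.4% and TGTA at 37.7%. The content of G and C in the 100 bases before the PAS had a median of 37% for PASs higher in siPAPag, 35% for those within 2-fold and 32% for those lower.

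Split into 4 equal groups by this content, last-exon PASs had median log2 ratios of siPAPag over siPAPa of -0.069 in the lowest group, 0.0031 in the second, 0.068 in the third and 0.15 in the highest. The share lower past 2-fold went from 9.50% in the lowest to 4.07% in the highest group, and the share higher from 4.41% to 7.17%. The ratio thus rose with the content of G and C at each step. For siPAPg over siCtrl, which shares no library with it, only the PASs of each group that were also tested there were used. These numbered 2269, 2421, 2483 and 2668, of 2926 or 2927 per group. Their medians were 0.0067, 0.045, 0.082 and -0.090, so the order was another one in the highest group. The part of base composition in the gene and PAS ratios was not tested.

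**Figure D3:**
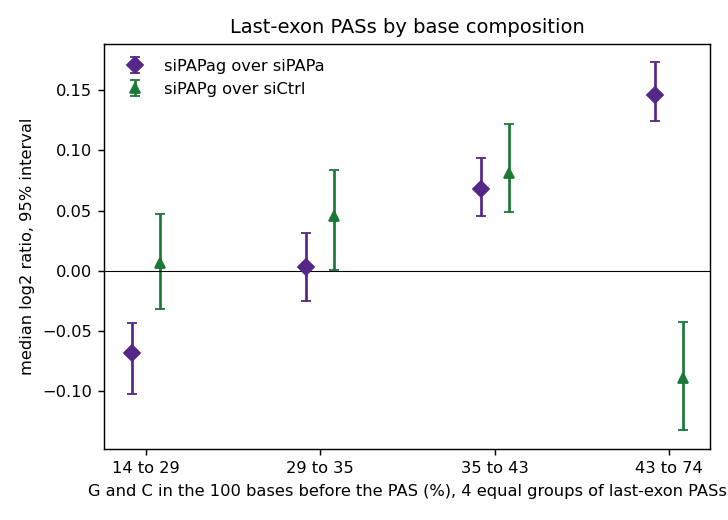
Median log2 ratio (vertical, with the 95% interval from order statistics over PASs, which are not replicates) of last-exon PASs in 4 equal groups by the content of G and C in the 100 bases before them (horizontal). For siPAPag over siPAPa (diamonds) the medians go from -0.069 to 0.15. For siPAPg over siCtrl (triangles), over the PASs of each group tested there, the highest group lies lowest, at -0.090.

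Genes higher in siPAPag came first from low levels in siPAPa. TSPYL4, of the testis-specific protein family, had 46 reads in siPAPa and 168 in siPAPag, with 56 in siCtrl and 116 in siPAPg, a ratio of 5.47 (3.93 to 7.76). ZNF429, a zinc finger gene, had 63 and 192 reads, with 59 and 100 in siCtrl and siPAPg, a ratio of 4.57 (3.42 to 6.17). In RPM both were highest in siPAPag, at 14.9 and 17.0, and lowest in siPAPa. RNF146, a ubiquitin ligase that binds poly(ADP-ribose), had 13 reads in siPAPa and 66 in siPAPag, a ratio of 7.61 (4.16 to 15.0). CHRD, which encodes the BMP antagonist chordin, had 12 and 55 reads, a ratio of 6.87 (3.63 to 14.1). For these genes siPAPag stood near siCtrl, at 5.85 against 5.15 RPM for RNF146, or between siPAPa and siCtrl, at 4.88 against 11.1 RPM for CHRD.

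BBS4, a subunit of the BBSome, had 29 reads in siPAPa and 98 in siPAPag, a ratio of 5.06 (3.32 to 7.95), and also rose from 12 in siCtrl to 62 in siPAPg. TMEM231, of the ciliary transition zone, had 12 and 51 reads, a ratio of 6.37 (3.35 to 13.1), of which 33.3% and 39.2% lay at PASs listed in both tables. GNAS-AS1, an antisense RNA of the GNAS locus, had 7 reads in siPAPa and 53 in siPAPag, 3 in siCtrl and 16 in siPAPg, and the largest ratio of the 12, 11.3 (5.14 to 29.6). The membrane adaptor gene PAG1 had 9 and 42 reads, LMBRD2 10 and 45, and KIAA0240 14 and 53. PAG1 had 0 siCtrl reads in either table, so its equal siCtrl sums say nothing of the listing. Of its reads 55.6% in siPAPa and 100% in siPAPag lay at PASs listed in both tables, and of those of LMBRD2 50% and 91.1%. The best read of the 12 were LOC100526820, with 1616 reads in siPAPa and 3670 in siPAPag, a ratio of 3.40 (3.21 to 3.61), and DKFZP434I0714, with 603 and 1345, a ratio of 3.34 (3.03 to 3.69). For DKFZP434I0714, siPAPa was the low library, at 35.7 RPM against 99.7 in siCtrl, 103 in siPAPg and 119 in siPAPag. Ranked over all genes, EIF3L and CAMKK1 took the places of KIAA0240 and DKFZP434I0714. EIF3L, a subunit of translation initiation factor eIF3, had 8444 reads in siPAPa and 18177 in siPAPag, with 1588 in siCtrl and 11191 in siPAPg, and its siCtrl sum of 1660 in the other table was close to the first.

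Among the lower genes, DDX21, a nucleolar RNA helicase, was the best read of the 12. It had 1020 reads in siPAPa and 131 in siPAPag, with 165 in siCtrl and 70 in siPAPg, and a ratio of 0.192 (0.159 to 0.231). Its level was 60.4 RPM in siPAPa, against 19.8 in siCtrl, 11.6 in siPAPag and 7.77 in siPAPg, and the intervals of siPAPa and the others did not overlap. PKIB, an inhibitor of protein kinase A, had 474 reads in siPAPa and 71 in siPAPag, a ratio of 0.224 (0.172 to 0.289). Both libraries with siRNA against PAPOLG were low for PKIB, at 4.77 RPM in siPAPg and 6.30 in siPAPag, while siCtrl and siPAPa stood at 23.8 and 28.1. GAL, the neuropeptide galanin, was at 72.4 RPM in siCtrl, 17.4 in siPAPa, 14.0 in siPAPg and 4.79 in siPAPag, with a ratio of siPAPag over siPAPa of 0.275 (0.202 to 0.369).

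CXADR, the receptor of coxsackieviruses and adenoviruses, had 53 reads in siPAPa and 2 in siPAPag, with 25 in siCtrl and 2 in siPAPg, a ratio of 0.0565 (0.00667 to 0.215). It shared with PKIB the pattern of low reads in both libraries with siRNA against PAPOLG. STBD1, a glycogen-binding protein, had 79 and 9 reads, with 26 in siCtrl and 7 in siPAPg; FAM47E-STBD1 is listed with reads at the same PAS and is not a separate count. ANKRD46 went from 110 to 16 reads and C7orf70 from 79 to 10. TARDBP, which encodes TDP-43, had 131 and 18 reads, and KIF5C, a kinesin heavy chain, had 76 and 6. For TARDBP only 19.1% and for KIF5C 7.89% of the siPAPa reads lay at PASs in both tables. siPAPag had 0 KIF5C reads at those PASs, so no side of 2-fold can be given for them. FAM86C1 had 60 and 5 reads, with 23.3% of the former at shared PASs. LINC00294, a noncoding RNA, had 52 reads in siPAPa and 3 in siPAPag, but also 4 in siCtrl and 5 in siPAPg, so that siPAPa was the high library.

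**Figure D4:**
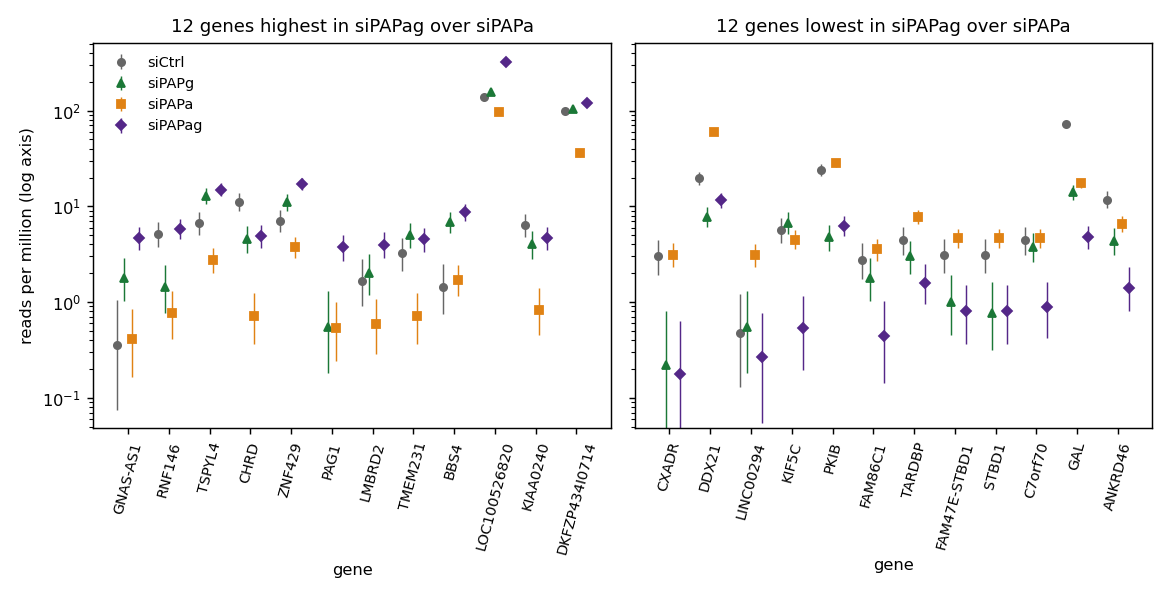
RPM (vertical, log axis) in siCtrl, siPAPg, siPAPa and siPAPag, 1 library each, for the 12 genes highest and the 12 lowest in siPAPag over siPAPa among genes with the same siCtrl sum; bars are exact 95% Poisson intervals, and counts of 0 are not drawn. In the left panel siPAPa lies below siPAPag for each gene, and in the right panel CXADR, DDX21, PKIB and STBD1 show siPAPg low together with siPAPag.

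Gene groups were read against the 5.1% and 4.48% of all such genes. In the list of CPSF with the scaffold symplekin, which the study names apart from CPSF, 1 of 3 genes with the same siCtrl sum was higher. It was SYMPK, the gene of symplekin, with 58 reads in siPAPa and 89 in siPAPag, a ratio of 2.30 (1.63 to 3.26), and 186 in siCtrl. The CPSF subunit genes CPSF4, at 1.36, and CPSF3, at 0.944, were within 2-fold. FIP1L1, which recruits PAP to CPSF, had 84 and 6 reads, but its siCtrl sum was 49 in one table and 19 in the other. In CstF, CFI and CFII, 0 of 7 were past 2-fold, with a median log2 ratio of 0.38, and CSTF3, a subunit of the cleavage stimulation factor, was at 1.53. CSTF1, the most-read member of the list, was at 1.15, with siCtrl sums of 1163 and 1166. Of the poly(A) polymerases and terminal uridylyltransferases, 0 of 2 with the same siCtrl sum and 0 of 6 tested were past 2-fold. The most read were ZCCHC6 at 1.16 and PAPD4 at 0.78, and both had other siCtrl sums in the second table (228 and 241, 151 and 155). MTPAP, the mitochondrial poly(A) polymerase, named after its values were seen, had 11 reads in siPAPa and 39 in siPAPag, a ratio of 5.31 (2.67 to 11.5), and was not tested because its 50 reads were not over the minimum. Poly(A) binding proteins held 0 past 2-fold of 3 with the same siCtrl sum, and PABPC1L, with 44 and 76 reads and siCtrl sums of 64 and 67, was at 2.59 (1.76 to 3.84). Deadenylases and exosome genes had 0 of 10 past 2-fold each, and SKIV2L2, the helicase that feeds the exosome, was at 1.39 and EXOSC1 at 0.937. The most-read deadenylase genes, CNOT10 at 0.86 and CNOT2 at 0.979, are not among the 10, since their siCtrl sums were 478 and 494 and 712 and 719.

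Energy and protein turnover genes held members in both directions. Of 57 oxidative phosphorylation genes with the same siCtrl sum, 1 was higher and 1 lower, with a median log2 ratio of 0.0034. NDUFA5, a subunit of complex I, had 3800 reads in siPAPa and 916 in siPAPag, with 1385 in siCtrl and 500 in siPAPg, a ratio of 0.361 (0.336 to 0.388). NDUFB11, of the same complex, had 565 and 949 reads, with 2155 in siCtrl and 521 in siPAPg, a ratio of 2.52 (2.27 to 2.80). So 2 subunits of one complex stood on opposite sides. Of 18 proteasome genes, PSMA5 was higher, with 37 and 51 reads, and PSMB3 lower, with 46 and 11, none of whose siPAPa reads lay at a shared PAS. Among cytosolic ribosomal proteins 0 of 51 were past 2-fold, with ratios from 0.529 to 1.38 and a median log2 ratio of -0.15, and 19 of 51 were above 1. RPL3 had 1377 and 326 reads, with siCtrl sums of 420 and 255. Translation factors had 0 of 20 past 2-fold, with a median of -0.15.

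The medians of SR and hnRNP genes lay below that of all genes, and SRSF2 was past 2-fold. This SR splicing factor had 11553 reads in siPAPa and 3726 in siPAPag, with 2857 in siCtrl and 1816 in siPAPg, a ratio of 0.483 (0.466 to 0.502). It was the 1 of 9 SR genes past 2-fold. The hnRNP genes had 0 of 12 past 2-fold, a median log2 ratio of -0.33 and 2 of 12 above 0, with PCBP2 at 1.07. HNRNPA1 was at 0.686, with siCtrl sums of 4924 and 4934. snoRNA host genes had 0 of 9, with a median of -0.32, and NCL, with siCtrl sums of 20383 and 20552, was at 1.02. The noncoding RNAs TUG1 and NEAT1, of which NEAT1 builds paraspeckles, stood at 1.25 and 1.71, with siCtrl sums of 330 and 331 for NEAT1. In the microRNA pathway 0 of 9 were past 2-fold, and TSN at 0.714 and DROSHA at 1.18 are not among them, their siCtrl sums being 1229 and 1342 and 1043 and 1047.

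Stress and growth genes showed single calls. In the integrated stress response, CHAC1, a glutathione-degrading enzyme, was higher, with 111 and 157 reads, a ratio of 2.12 (1.65 to 2.73), and PSAT1, of serine synthesis, was lower, with 215 and 66, a ratio of 0.46 (0.344 to 0.609), out of 12. VLDLR, with siCtrl sums of 53 and 17, had 57 and 17 reads. Of 9 genes that p53 induces, RRM2B was lower, with 50 and 12 reads of which 10.0% of the former lay at shared PASs, while CCNG1, with siCtrl sums of 108 and 111, was at 3.04 (2.29 to 4.05). Of 10 cyclin and mitotic genes CDK6 was lower, with 74 reads in siPAPa and 21 in siPAPag, a ratio of 0.425 (0.249 to 0.698). BUB1, with 333 and 71 reads, had siCtrl sums of 219 and 95. Replication fork, cholesterol, heat shock, interferon and immediate early genes had 0 past 2-fold of 12, 12, 10, 10 and 9. In these lists IFI6 was at 0.983, IFIT5 at 1.61, JUND at 1.47 and JUN at 0.80. Falls of RPA3, GINS4, CYP51A1, HMGCS1, DNAJA1 and HSPA4, from 0.0119 for DNAJA1 to 0.398 for HMGCS1, were in genes whose siCtrl sum differed between the tables.

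In 3′UTR-APA a gene's 2 most-read last-exon PASs, among those listed in both tables and for no other gene, were compared by RED. RED is the log2 ratio of distal over proximal reads in siPAPag minus that in siPAPa. Sites absent from either table did not enter. Of 4346 genes, 888 had distal use higher past 2-fold (20.4%) and 749 lower (17.2%), with a median RED of 0.057. In 674 and 571 of these the interval of the gene excluded no change. Longer distances between the PASs went with more distal use. At under 300 nt the median RED was -0.083, with 245 genes up and 254 down of 1459. From 300 to 999 nt it was 0.087, and from 1000 to 2999 nt 0.100. At 3000 nt or more it was 0.30, with 130 of 454 genes up and 74 down. The median share of distal reads was 52.7% in siCtrl, 52.5% in siPAPg, 56.2% in siPAPa and 58.4% in siPAPag, over the pairs with at least 20 reads in the library.

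**Figure D5:**
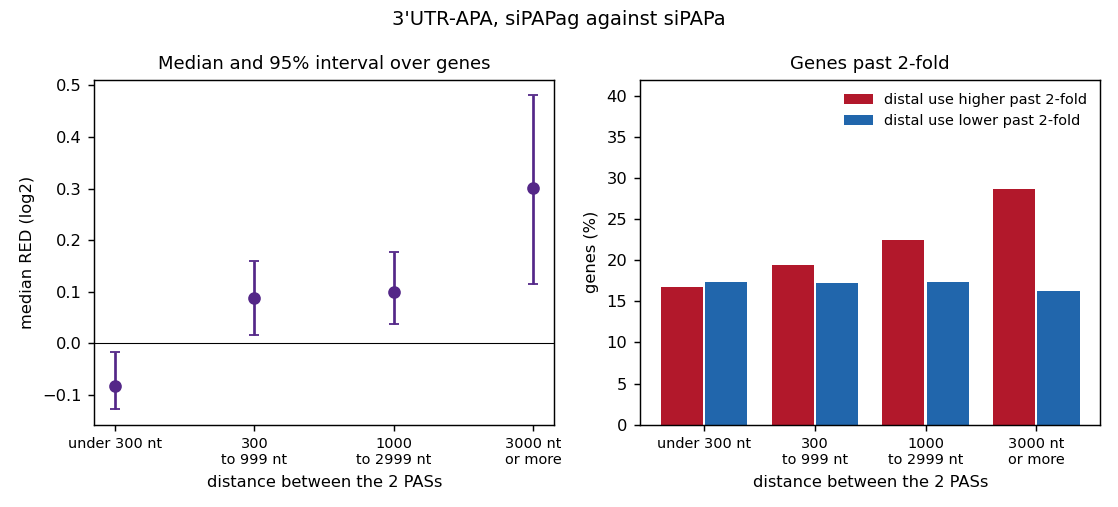
3′UTR-APA in siPAPag against siPAPa by the distance between the 2 PASs of a gene. The left panel gives the median RED (log2) with its 95% interval from order statistics over genes, from -0.083 under 300 nt to 0.30 at 3000 nt or more, and the right panel the percentage of genes with distal use higher or lower past 2-fold.

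The sites of TAF9 are shown because its use of them moved far although they lie close together. In TAF9 the proximal PAS (chr5:68660697-68660726) and the distal PAS (chr5:68660570-68660599, both minus strand) lie 127 nt apart. Capitals mark the signal as above.
TAF9 proximal: attgtactgatATTAAAcatgcatgctgga
TAF9 distal: gtaagaaaAATAAAgttgtcattcattcga

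TAF9, a subunit of TFIID, had 82 proximal reads in siPAPa and 8 in siPAPag, and 15 and 31 distal reads. Its distal share went from 15.5% to 79.5%, a RED of 4.40 (2.96 to 5.65), and it was 66.7% in siCtrl and 40.8% in siPAPg. VGLL3, a cofactor of TEAD factors, went from 26.9% to 95.2% distal, with 49 and 3 proximal and 18 and 59 distal reads. In C12orf41 the distal share went from 25% to 96.3%, in LRP4 from 8.0% to 69.6%, in MEX3A from 4.41% to 55.6% and in DCAF5 from 35.1% to 90.9%. In siCtrl, TAF9, VGLL3, C12orf41 and MEX3A had distal shares of 66.7% to 94.3%, nearer to siPAPag than to siPAPa. LRP4 had 41.2%, also nearer to siPAPag, and DCAF5 had 60.5%, nearer to siPAPa. In the other direction, the distal share of GORAB, a golgin, went from 80.0% to 5.71%, with 6 and 33 proximal and 24 and 2 distal reads. UBE2V2, a ubiquitin-conjugating enzyme variant, went from 95.6% to 31.2%, ZNF772 from 97.5% to 58.7%, C5orf28 from 94.7% to 44.1% and PRUNE2 from 63.5% to 8.16%. For these genes siCtrl lay on either side. UBE2V2, ZNF772 and PRUNE2 had siCtrl shares of 72.9%, 100% and 77.8%, nearer to siPAPa, the latter genes on few siCtrl reads. GORAB and C5orf28 had 0% and 55.1%, nearer to siPAPag.

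UR-APA compared the reads at intronic and upstream exon PASs with those of the last exon. Only PASs listed in both tables and for no other gene were counted, also in the genes named below. Of 2210 genes, upstream use was higher past 2-fold in 600 (27.1%) and lower in 483 (21.9%), with a median of 0.13 on the log2 scale. In 439 and 349 of them the interval excluded no change. Over all reads at shared PASs, however, introns took 2.76% in siPAPa and 2.56% in siPAPag, against 3.79% in siCtrl and 3.00% in siPAPg, so that the share by reads and the median over genes differed in direction. RPRD1A, which binds the tail of RNA polymerase II, had 264 upstream reads in siPAPa and 558 in siPAPag, and 174 and 36 in the last exon. Its upstream share was 60.3% in siPAPa, 93.9% in siPAPag, 81.1% in siPAPg and 85.6% in siCtrl. CAMK1D, a calcium-dependent kinase, went from 1 to 21 upstream reads and from 68 to 21 in the last exon, and UBTD2 from 7 to 35 and from 25 to 5. PGAP1, which remodels GPI anchors, fell from 89 upstream reads to 4, with 55 and 77 in the last exon. In C10orf76, whose intronic PAS is printed above, upstream reads fell from 70 to 1 while the last exon had 443 and 434. C14orf101 had 143 and 16 upstream reads and 0 and 9 in the last exon, where reads at last-exon PASs absent from either table are not included.

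The siRNA against PAPOLG alone could be set beside its use on top of that against PAPOLA, since siPAPg over siCtrl and siPAPag over siPAPa share no library. Across 9344 genes with at least 20 reads in each, whatever their siCtrl sums, the log2 ratios correlated at Pearson r = 0.093 and Spearman rho = 0.093. Over the 5338 with the same siCtrl sum, r was 0.088 and rho 0.074. Over the 2863 of those with at least 100 reads in each, r was 0.041 and rho 0.039. Among genes with the same siCtrl sum, 10.4% of 5541 tested were higher past 2-fold in siPAPg over siCtrl and 12.5% lower. Of the 202 genes lower in siPAPag over siPAPa that were tested there, 58 (28.7%) were lower and 18 (8.91%) higher. Past 3-fold, 19 of 43 were lower and 0 higher. The genes higher in siPAPag over siPAPa gave another picture, with 33 of 231 higher (14.3%) and 44 lower (19.05%). DDX21, PKIB, GAL and ANKRD46 were lower in both, at 0.393, 0.200, 0.193 and 0.369 in siPAPg over siCtrl. BBS4 was higher in both, at 4.79 in siPAPg over siCtrl.

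The largest differences between these ratios, among genes with the same siCtrl sum and at least 100 reads in each library, were in genes where siCtrl stood apart. GSC, the homeobox gene goosecoid, was at 156 RPM in siCtrl and at 6.75, 11.7 and 9.67 in siPAPa, siPAPg and siPAPag. Its ratio was 0.0745 in siPAPg over siCtrl and 1.43 (1.09 to 1.88) in siPAPag over siPAPa. FLJ45983, C19orf28, NDUFB11, CLDND2 and CCDC108 also had siCtrl above all KD libraries. In NDUFB11, CLDND2 and CCDC108 siPAPag came next. In the other direction, ARMC5 was at 15.6 RPM in siCtrl and at 232, 143 and 244 in siPAPa, siPAPg and siPAPag, with a ratio of 1.05 (1.00 to 1.10) in siPAPag over siPAPa. CHCHD10, a mitochondrial protein, was at 47.6 RPM in siCtrl and at 384, 222 and 265. SF3B14, a subunit of SF3B, SLC2A11, a sugar transporter, C1orf122 and DPP3 were also lowest in siCtrl. For CLDND2 and C1orf122 none of the siPAPa or siPAPag reads lay at PASs listed in both tables. Ranked over all genes, PRR7 joined the first group, and the second was RPA3, KCTD20, MAPK8IP2, NTPCR, PANX1 and KLHDC2, whose siCtrl sums all differed between the tables.

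Of the pairs among the 4 libraries, siPAPag and siPAPa had the smallest spread between them. Over 2863 genes with the same siCtrl sum and at least 100 reads in each library, the SD of the log2 ratio was 0.406 for siPAPag over siPAPa, 0.429 for siPAPag over siPAPg and 0.534 for siPAPg over siPAPa. Against siCtrl it was 0.866 for siPAPag, 0.909 for siPAPa and 0.745 for siPAPg. At the 2-fold limit, 49 of these genes were higher and 17 lower in siPAPag over siPAPa, against 255 and 440 in siPAPa over siCtrl. Set beside siCtrl, the 313 higher genes had a median ratio of 0.531 in siPAPa and 1.36 in siPAPag, and the 275 lower genes of 1.21 and 0.438, where these ratios share siPAPa or siPAPag with the calls.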

How the data were processed

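Total RNA of HEK293 cells was read by 3′READS, with 1 library per group. The authors aligned the reads with Bowtie2 (build hg19), took those of MAPQ over 10 with at least 2 untemplated Ts, clustered PASs within 24 nt, removed rare PASs, and deposited the number of PASS reads per PAS as counts, not normalized. Groups were taken from the labels. Values of siPAPag and siPAPa were joined on the gene identifier, summed over rows on the strand of the gene, and on the PAS. Each library was scaled by its column total. The antisense rows upstream of start sites, 0.325% of the reads of siPAPa and 0.518% of siPAPag, counted in the totals only. The third table, of another protocol, was not used here.

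Items with more than 50 reads over both libraries were called past 2-fold, after the study's rule, with a count of 0 put at 3 reads. Ratios have exact conditional (Clopper-Pearson) 95% intervals, levels exact Poisson intervals, and ratios of ratios Woolf intervals with 0.5 read added. APA used PASs listed in both tables and for no other gene. At least 20 reads per library were required over the PASs compared, which in 3′UTR-APA were 1 pair per gene. SAAP and GAAP, the study's programs, were not used here. Reads carry no molecular identifiers that were counted, so all intervals cover counting error only.

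Named genes were PAPOLA, PAPOLG, PAPOLB, TUT1 and GAPDH; the 12 highest and 12 lowest genes by the bound of the interval nearest to no change; 6 and 6 genes in 3′UTR-APA and 3 and 3 in UR-APA by the same bound; list members past 2-fold, up to the 4 farthest, or the 2 most read; and the 6 largest differences in each direction from siPAPg over siCtrl at 100 reads or more per library. The members and lists were chosen with earlier results of these data known. The same ranking over genes with the same siCtrl sum, the ranking of PASs and the families in the closing section were chosen after the data were seen. Sequences were read from GRCh37. The steps were tested on simulated data. Alternatives covered scaling (edgeR and DESeq2 factors among them), read filters, thinning with 20 draws, a pseudocount of 1 read, and the PASs and genes included. Tools were scipy 1.17.1, numpy 2.4.6, pandas 2.3.3 and matplotlib 3.10.9 in Python 3.11.15, and DESeq2 1.42.0 and edgeR 4.0.16 in R 4.3.3. Some genes are not reported here.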

Additional observations from a re-analysis of the deposited data

Results flagged for a closer look

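There were 62 genes with the same siCtrl sum that passed 2-fold in opposite directions in siPAPag over siPAPa and in siPAPg over siCtrl. Of these, 44 were higher in the first and lower in the second, which is 19.05% of the 231 tested in both. Of all 5541 genes tested in siPAPg over siCtrl, 12.5% were lower. The reverse held for 18, which is 8.91% of 202, while 10.4% of the 5541 were higher. In the same direction went 33 of the 231 and 58 of the 202. With 1 library in each group the difference between the ratios was not tested. NDUFB11, a subunit of complex I, had 2155 reads in siCtrl and 521 in siPAPg, but 565 in siPAPa and 949 in siPAPag. PPP1R7, a regulator of protein phosphatase 1, had 5312, 2357, 1250 and 1860 reads in the same order of libraries, and HDHD2 had 5824, 3056, 4626 and 6238. Among the 18, DPP3, a dipeptidyl peptidase, had 158 reads in siCtrl and 507 in siPAPg, but 1510 in siPAPa and 495 in siPAPag, and ALKBH1, a demethylase, had 210, 463, 817 and 260. The ubiquitin ligase ITCH had 47, 114, 211 and 61 reads. The totals of the libraries differ, and in RPM siCtrl was above siPAPag for HDHD2, ALKBH1 and ITCH. In the same order, HDHD2 was at 697, 339, 274 and 553 RPM. ALKBH1 was at 25.1, 51.4, 48.4 and 23.1 RPM, and ITCH at 5.63, 12.7, 12.5 and 5.41.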

How the results depend on the processing

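Of 95 alternatives to the counts, medians and the correlation, 60 stayed within 1.5 times the count or within the interval of the value and 35 did not. With the reads of the main setting, 448 genes were higher and 798 lower, and 820 and 931 PASs. Without a filter on reads there were 1250 and 1545 genes and 4680 and 3759 PASs, and with more than 200 reads 141 and 301 genes and 193 PASs in each direction, since other numbers of items were tested. An interval wholly past 2-fold left 116 and 362 genes and 236 and 255 PASs. The PASS read totals of the study gave 271 higher genes, and over genes with the same siCtrl sum 183 higher and 394 lower. Lower genes numbered 388 with sums over PASs in both tables, 275 among genes with the same siCtrl sum and 238 with both, so this count depends on the listing of PASs. The median log2 ratio of genes, 0.017, was -0.010 with totals over PASs in both tables, -0.15 with the study's totals, -0.016 with TMM factors, -0.011 with DESeq2 size factors, 0.0031 with each PAS counted once, 0.032 at more than 200 reads, 0.065 over PASs in both tables, 0.047 over genes with the same siCtrl sum and 0.061 with both. At 100 reads or more per library 381 genes were lengthened and 295 shortened, and 245 and 232 changed in UR-APA, fewer genes being tested. With a change of 20 percentage points in place of 2-fold the numbers were 318, 265, 163 and 128. Of 224 alternatives for single genes, 222 kept their side of 2-fold. The others, PAPOLA and KIF5C over PASs in both tables, had 0 siPAPag reads there, put at 3, so that -1.42 and -0.416 are bounds, and the latter gives no side of 2-fold. Within 2-fold the sign was not always kept. The log2 ratio of TUT1 was 0.143 and -0.024 with the study's totals. That of PAPOLA was -0.0014 and 0.053 with 1 read added. No paired analysis was possible because each group was 1 library and no replicate numbers are shared. Low read numbers limit PAPOLG and the genes at the lowest levels most. Alternatives on genes with the same siCtrl sum beyond the plan, each PAS counted once and the ranking of PASs were chosen after seeing the data.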

Other observations

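Gene families named by symbol, chosen with the values known, were read among genes with the same siCtrl sum, where 5.1% were higher and 4.48% lower past 2-fold in siPAPag over siPAPa. Of 189 genes named ZNF, 10 were higher and 10 lower, with a median log2 ratio of 0.069. Mitochondrial ribosomal protein genes had 1 higher and 2 lower of 44 and a median of -0.11, with 17 of 44 above 0. Solute carriers had 4 higher and 6 lower of 116, with a median of -0.032. Of 17 aminoacyl-tRNA synthetases 0 were higher and 2 lower, and of 15 kinesin genes 1 was higher and 3 lower. Antisense RNAs, 12 in all, had 1 higher, GNAS-AS1, and 0 lower, with a median of 0.17.

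Between the contrasts that share no library, 3′UTR-APA was set side by side as for gene levels. Of 739 genes lengthened in siPAPag over siPAPa with enough reads, 195 (26.4%) were lengthened and 166 (22.5%) shortened past 2-fold in siPAPg over siCtrl. Of 615 shortened genes, 150 (24.4%) were lengthened and 169 (27.5%) shortened there. Over all 3831 such genes the shares were 23.0% and 21.6%.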
